A study of Mus musculus with 4 samples.

Results

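The 7 genes described here, *Spp1*, *Ibsp*, *Runx2*, *Alpl*, *Mgp*, *Enpp1* and *Tnfrsf11b*, are known promoters and inhibitors of arterial mineralisation. They were taken by name from the 34469 genes of the expression tables, without reference to their values, and all 7 were present in each of the 4 single-cell RNA libraries. Their levels were followed across cell states and genotypes in atherosclerotic plaque and in ligated carotid artery. The plaque libraries came from male C57Bl/6 mice, one from *Myh11-CreERt2/Confetti/ApoE-/-* animals (ApoE-/-) and one from *Myh11-CreERt2/Confetti/Sm22a-Trf2T188A/ApoE-/-* animals (Trf2T188A/ApoE-/-). Both genotypes therefore lacked ApoE, received 10 tamoxifen injections from 6 weeks of age, which switched on the Confetti reporter in *Myh11*-expressing vascular smooth muscle cells (VSMCs), and ate a high fat diet for 14 weeks before plaques were dissected from the aortic root, the arch and the carotid arteries. The ligation libraries came from wild type control and SM22a-TRF2T188A (Trf2T188A) male C57Bl/6 mice of 4 to 5 months, whose left common carotid artery had been tied 28 days earlier, with adventitia removed. TRF2T188A is a mutant of the telomere-binding protein TRF2, here driven by a minimal *Sm22a* promoter active in arterial VSMCs, that the study used to bring about early VSMC senescence. The question was how the mineralisation genes differed between cell states and between genotypes. There was 1 library per genotype in each experiment and the number of mice pooled in a library was not given, so no test over animals was possible and no p-values are given.

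Vascular mineral is hydroxyapatite laid down in the arterial wall by a process that shares much of its machinery with bone and growth plate cartilage. RUNX2 is the transcription factor that commits cells to the osteoblast lineage and drives hypertrophic cartilage. Tissue-nonspecific alkaline phosphatase, the product of *Alpl*, hydrolyses pyrophosphate and so removes an inhibitor of crystal growth while releasing phosphate. Bone sialoprotein (*Ibsp*) and osteopontin (*Spp1*) are acidic matrix phosphoproteins of the SIBLING family, the former a nucleator of hydroxyapatite and the latter a mineral-binding protein that can restrain crystal growth. On the inhibitory side, matrix Gla protein (*Mgp*) is a vitamin K-dependent protein without which the arteries of mice calcify, ENPP1 makes pyrophosphate from ATP, and osteoprotegerin (*Tnfrsf11b*) is a decoy receptor for RANKL.

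In the mouse genome (GRCm38.p6, RefSeq), the SIBLING pair lay together on chromosome 5, *Ibsp* at 104299287 to 104311472 and *Spp1* at 104435111 to 104441053, separated by 123638 bases that held 1 other gene, the SIBLING *Mepe*. The other members were dispersed, with *Alpl* on chromosome 4 (137741731 to 137796384), *Mgp* on 6 (136872435 to 136875823), *Enpp1* on 10 (24637914 to 24712159), *Tnfrsf11b* on 15 (54250619 to 54278484) and *Runx2* on 17 (44495987 to 44814797). The 250 bases before the first start of *Ibsp*, *Spp1* and *Alpl* are shown because these were the members past the fold between the plaque genotypes over all cells. They are the RefSeq windows chr5:104299037-104299286 (+), chr5:104434861-104435110 (+) and chr4:137796385-137796634 (-), in which capitals mark every match to TGTGGT (the RUNX core), TATAAA or CCAAT, searched on both strands.
Ibsp: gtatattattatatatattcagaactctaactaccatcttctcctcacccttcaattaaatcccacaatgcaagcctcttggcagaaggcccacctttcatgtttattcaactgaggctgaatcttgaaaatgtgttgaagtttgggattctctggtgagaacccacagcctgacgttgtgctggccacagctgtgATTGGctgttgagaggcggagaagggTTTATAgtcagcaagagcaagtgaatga
Spp1: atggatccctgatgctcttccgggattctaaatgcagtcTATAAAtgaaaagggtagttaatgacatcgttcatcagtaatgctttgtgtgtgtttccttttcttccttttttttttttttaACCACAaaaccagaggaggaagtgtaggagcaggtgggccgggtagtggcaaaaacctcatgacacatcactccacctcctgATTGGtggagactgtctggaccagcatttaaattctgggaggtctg
Alpl: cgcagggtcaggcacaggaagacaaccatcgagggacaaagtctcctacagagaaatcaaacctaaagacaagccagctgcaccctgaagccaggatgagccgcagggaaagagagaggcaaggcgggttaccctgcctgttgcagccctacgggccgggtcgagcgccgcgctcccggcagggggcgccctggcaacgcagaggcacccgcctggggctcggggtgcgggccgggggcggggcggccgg
The *Spp1* window held 1 match to TGTGGT, on the reverse strand 128 to 123 bases before the start, and the *Ibsp* and *Alpl* windows held none. TATAAA matched at 28 to 23 bases before the *Ibsp* start, on the reverse strand, and at 211 to 206 before the *Spp1* start. CCAAT matched on the reverse strand at 54 to 50 bases (*Ibsp*) and 46 to 42 bases (*Spp1*). Of 32851 annotated windows of the same length, 14.1% held TGTGGT, 12.4% TATAAA and 33.9% CCAAT, and no factor binding was measured. Promoter windows were found for 5 of the 7 members, and of the others *Runx2* and *Enpp1* each held 1 TGTGGT match, at 80 to 75 and 144 to 139 bases, both on the reverse strand.

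The plaque libraries held 1502 (ApoE-/-) and 929 (Trf2T188A/ApoE-/-) cells with median depths of 22766 and 24377 unique molecular identifiers (UMIs, one per captured transcript), and the ligation libraries 4967 (control) and 5392 (Trf2T188A) cells with 8631 and 11153. Of the cells, 83.6% and 85.4% of the plaque libraries carried a Confetti transcript. No barcode was shared by the plaque libraries and 10 were shared by the ligation libraries. Transcripts of *Terf2*, the gene of TRF2, were at 0.183 per 10000 UMIs in both plaque libraries and at 0.179 and 0.168 after ligation, and since it is not known whether transgene transcripts reach the counted 3′ ends, this does not check the genotype labels. Cells were clustered with the 7 members and the other listed mineralisation genes kept out of the variable genes, and a class was named "-like" from marker genes among which no member stood. In plaque (ApoE-/- and Trf2T188A/ApoE-/-) these were contractile-like (763 and 340 cells, led by smooth muscle myosin and actin genes), fibromyocyte-like (159 and 133, matrix genes such as *Lum* and *Fn1*), complement and acute-phase-like (108 and 77, *C3* and *Lcn2*) and chondrocyte-like cells (81 and 61, *Col2a1*, *Acan* and *Chad*), with 356 and 317 cells unnamed and 35 and 1 adventitial fibroblast-like. Chondrocyte-like cells made up 5.39% and 6.57% of the libraries, had median depths of 36229 and 32841 UMIs, and carried a Confetti transcript in 61.7% and 80.3%. Levels below are pooled UMIs of the gene per 10000 UMIs of the class, and intervals are exact 95% intervals that cover counting error only.

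Among contractile-like, fibromyocyte-like, complement and acute-phase-like and chondrocyte-like cells, the promoter genes were highest in the chondrocyte-like cells. *Runx2* was at 0.865 per 10000 UMIs (0.769 to 0.971) in ApoE-/- and 0.481 (0.396 to 0.58) in Trf2T188A/ApoE-/- chondrocyte-like cells, against 0.017 and 0.0104 in contractile-like cells. *Alpl* was at 4.32 (4.1 to 4.55) and 0.906 (0.787 to 1.04), against 0.0771 and 0.0703. *Ibsp* was at 228 (227 to 230) and 62.5 (61.4 to 63.5), against 0.0904 and 0.0651. In both libraries, then, each promoter was many times more abundant in chondrocyte-like than in contractile-like cells, by 50.9-fold and 46.3-fold for *Runx2*, 56.1-fold and 12.9-fold for *Alpl* and 2523-fold and 960-fold for *Ibsp*. *Spp1* was at 170 (168 to 171) and 155 (154 to 157) in chondrocyte-like cells, against 0.42 and 0.386 in contractile-like cells, ratios of 404 and 402. *Spp1* was also high outside the cartilage-like state, at 55.4 and 123 in fibromyocyte-like cells and at 21.9 and 43.5 in complement and acute-phase-like cells. *Runx2* was not confined to that state either. It was at 0.241 and 0.392 in fibromyocyte-like cells and at 0.253 and 0.178 in complement and acute-phase-like cells. In contractile-like cells a UMI of *Ibsp* was found in 14% and 11.2% of cells, of *Alpl* in 11.4% and 11.8% and of *Runx2* in 3.01% and 1.76%, and the part of free RNA in these shares was not tested. In chondrocyte-like cells the shares were 86.4% and 78.7%, 51.9% and 16.4%, and 64.2% and 52.5%. With every cell thinned to 8000 UMIs the *Alpl* shares were 42.3% and 10.9% in chondrocyte-like and 4.87% and 2.96% in contractile-like cells. Macrophages also make osteopontin, and the 10 macrophage markers summed to 0.439 and 0.6 per 10000 in chondrocyte-like cells, with 1 and 0 of the 10 at 0. Their sums were 0.159 and 0.197 in fibromyocyte-like cells (2 and 1 at 0) and 0.351 and 0.309 in complement and acute-phase-like cells (1 at 0 in each library). The part of these cells' RNA in the *Spp1* levels was not tested.

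**Figure D1:**
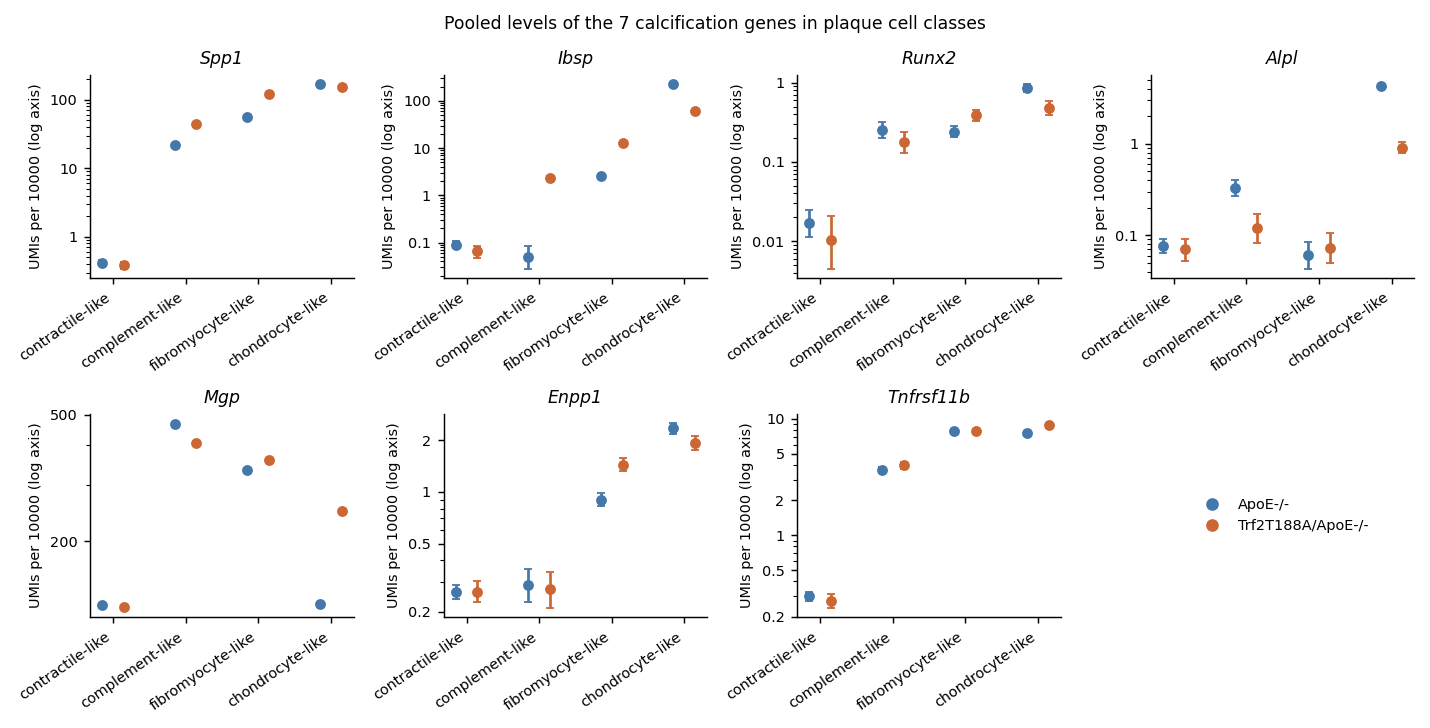
Level of each of the 7 genes (pooled UMIs per 10000 UMIs, log axis) in the named plaque cell classes, 1 point per library with its exact 95% Poisson interval. *Ibsp* and *Alpl* stood high in chondrocyte-like cells, *Spp1* in both chondrocyte-like and fibromyocyte-like cells, and *Mgp* in complement and acute-phase-like cells (468 and 406).

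Each inhibitor had its own distribution. *Enpp1* was highest in the same cells as the promoters, at 2.35 and 1.93 per 10000 in chondrocyte-like cells, 0.903 and 1.44 in fibromyocyte-like cells, and 0.262 in contractile-like cells of both libraries. *Tnfrsf11b* was at 7.59 and 8.81 in chondrocyte-like cells, at 7.91 and 7.79 in fibromyocyte-like cells and at 3.61 and 3.98 in complement and acute-phase-like cells, against 0.299 and 0.273 in contractile-like cells. The chondrocyte-like and fibromyocyte-like levels of osteoprotegerin lay within 1.5-fold of each other in both libraries. *Mgp* had a different order, since it was already at 126 and 124 in contractile-like cells and was highest in complement and acute-phase-like cells, at 468 (465 to 470) and 406 (404 to 409), followed by fibromyocyte-like cells at 334 and 360. In chondrocyte-like cells *Mgp* was at 127 in ApoE-/-, close to the contractile-like level, and at 250 in Trf2T188A/ApoE-/-. The class with the highest level was the same in both libraries for 6 of the 7 genes, the exception being *Tnfrsf11b*.

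A gene was counted as past the fold when the ratio reached 1.5 in either direction, and only genes detected (a UMI in 10% or more of the cells) in a library were tested. *Runx2* was detected in under 10% of contractile-like cells and passed only through the classes in which it was higher, so it is left out of the counts that follow. Relative to contractile-like cells, 5 of the other 6 members were past the fold upward in chondrocyte-like cells of both libraries, all but *Mgp* (1.01 and 2.01), where 14.6% of all 10836 genes tested were higher and 30.4% lower. In fibromyocyte-like cells 5 of the 6 were higher, all but *Alpl*, and none was lower, against 15.5% and 13.4% of genes. In complement and acute-phase-like cells 4 of the 6 were higher, all but *Ibsp* and *Enpp1*, and none was lower, against 15.8% and 9.63% of genes. These shares over all genes include genes that, like *Runx2*, passed in only 1 of the classes. *Alpl* was at 0.0611 and 0.0734 in fibromyocyte-like cells, ratios of 0.792 and 1.04 over its contractile-like level.

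Over all plaque cells, *Ibsp* was at 20.7 per 10000 in ApoE-/- and 8.3 in Trf2T188A/ApoE-/-, a ratio of 0.402 (0.395 to 0.408). *Alpl* was at 0.481 and 0.167, a ratio of 0.347. *Spp1* went the other way, at 27.2 and 41.9, a ratio of 1.54 (1.53 to 1.56). These were the 3 members of 7 past the fold between genotypes over all plaque cells, where 0.646% of 10526 genes were past it. Chondrocyte-like cells held 76471 of the 78266 and 14272 of the 19976 *Ibsp* UMIs. They also held 1448 of the 1821 and 207 of the 402 *Alpl* UMIs. The *Spp1* ratio was 0.92 within contractile-like and 0.914 within chondrocyte-like cells. Contractile-like cells, low in *Spp1*, made up 50.8% and 36.6% of the libraries. The part of class make-up in these ratios was not tested. Without the 5% of cells with the highest doublet scores *Spp1* fell just inside the fold, at a log2 ratio of 0.58 in place of 0.62. *Runx2* (0.167 and 0.165), *Mgp* (205 and 234), *Enpp1* (0.557 and 0.668) and *Tnfrsf11b* (2.58 and 3.13) did not reach the fold.

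Within the chondrocyte-like cells, the promoter genes *Ibsp*, *Alpl* and *Runx2* were lower in the Trf2T188A/ApoE-/- library. *Ibsp* was 228 in ApoE-/- and 62.5 in Trf2T188A/ApoE-/-, a ratio of 0.274 (0.269 to 0.279). *Alpl* was 4.32 and 0.906, a ratio of 0.21 (0.18 to 0.243), and *Runx2* 0.865 and 0.481, a ratio of 0.556 (0.443 to 0.695). *Mgp*, the matrix inhibitor, was higher in Trf2T188A/ApoE-/-, 127 and 250, a ratio of 1.96. *Spp1* (170 and 155), *Enpp1* (2.35 and 1.93) and *Tnfrsf11b* (7.59 and 8.81) stayed inside the fold. Thus 4 of 7 members were past the fold, 3 lower and 1 higher, in a class of few cells in which 20.5% of 11114 genes were also past it. *Runx2* in these cells was the call most exposed to the choice of cells, with a log2 ratio of -0.85 in all of them and -0.35 when only cells with a Confetti UMI were kept. The make-up of the class also differed between the libraries. The 11 cartilage markers summed to 528 and 371 per 10000, the 8 complement and acute-phase markers to 20.6 and 52.2, and the 9 de-differentiated markers, *Lum* and *Dcn* among them, to 239 and 332, with 0 markers of each list at 0. The part of these differences in the *Ibsp*, *Alpl*, *Runx2* and *Mgp* ratios was not tested.

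The per-cell values showed that the *Ibsp* difference was spread over cells. The median cell held 95.4 per 10000 in ApoE-/- (quartiles 4.79 and 352) and 5.18 in Trf2T188A/ApoE-/- (quartiles 0.274 and 75.9), although the ranges of the libraries overlapped. At least 10 *Ibsp* UMIs were found in 74.1% and 54.1% of the chondrocyte-like cells. For *Alpl* the shares with at least 10 UMIs were 29.6% and 9.84%, and 1 cell held 27.1% of the *Alpl* UMIs of the Trf2T188A/ApoE-/- class. Averaging over cells instead of pooling UMIs moved the *Alpl* log2 ratio from -2.25 to -0.91, since that cell was shallow (4217 UMIs, 56 of them *Alpl*). The median cell was at 64.1 and 150 for *Mgp*, 71.9 and 58.3 for *Spp1*, 1.82 and 1.39 for *Enpp1* and 6.21 and 6.26 for *Tnfrsf11b*, in the same order as the pooled levels. Across plaque, 68 cells of ApoE-/- (4.53%) and 49 of Trf2T188A/ApoE-/- (5.27%) held at least 10 *Ibsp* UMIs, so the share of such cells was not lower in the latter. Of these, 60 and 33 were chondrocyte-like and 7 and 13 fibromyocyte-like. At least 10 *Spp1* UMIs were present in 61 of the 68 and 47 of the 49, and at least 10 *Alpl* UMIs in 23 and 7. Conversely, 27 and 8 plaque cells held at least 10 *Alpl* UMIs, of which 23 and 7 also held at least 10 of *Ibsp*.

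**Figure D2:**
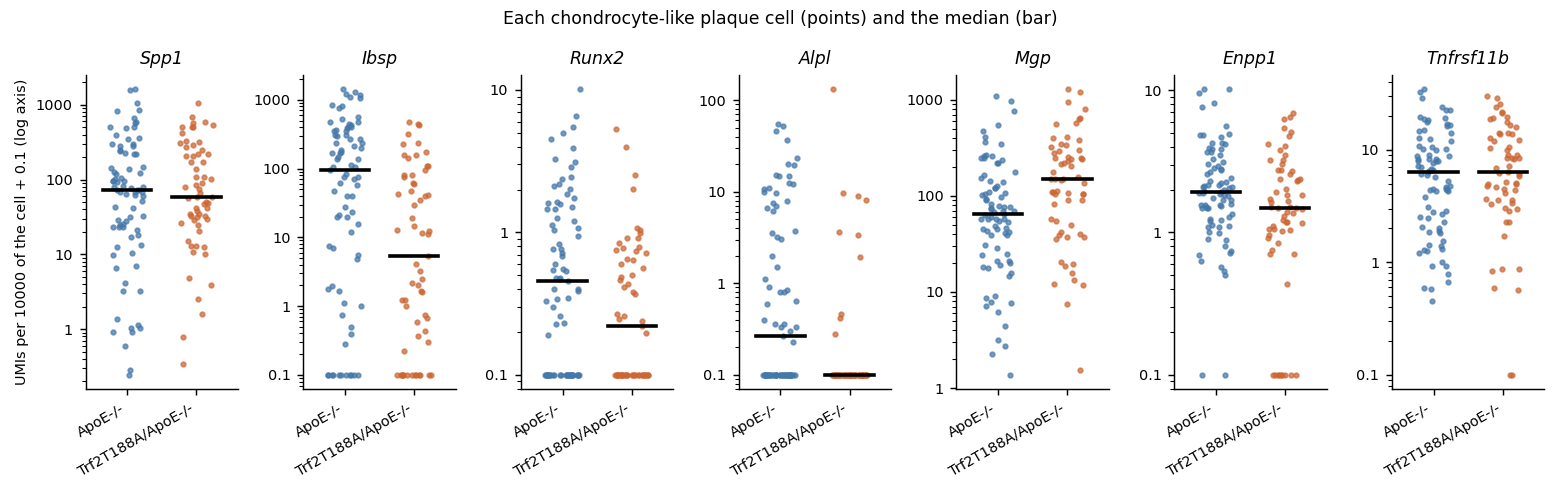
Each member in single chondrocyte-like plaque cells, with UMIs per 10000 of the cell + 0.1 on a log axis, 1 point per cell (81 ApoE-/- and 61 Trf2T188A/ApoE-/- cells) and a bar at the median; cells at 0.1 held no UMI. The *Ibsp* medians were 95.4 and 5.18 with overlapping ranges, and most Trf2T188A/ApoE-/- cells held no *Alpl* UMI.

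In the fibromyocyte-like cells *Ibsp* and *Runx2* were higher, not lower, in the Trf2T188A/ApoE-/- library. *Spp1* was at 55.4 per 10000 in ApoE-/- and 123 in Trf2T188A/ApoE-/-, a ratio of 2.23. *Ibsp* was at 2.51 and 12.6, a ratio of 5.03, *Runx2* at 0.241 and 0.392, a ratio of 1.63, and *Enpp1* at 0.903 and 1.44, a ratio of 1.6. So 4 of 7 members were past the fold, each of them higher in Trf2T188A/ApoE-/-, against 11.3% of 11458 genes in either direction. The *Runx2* ratio fell to 1.34, inside the fold, when the highest cell of each library was left out. The *Ibsp* values rested on few cells, because 1 cell held 66.4% of the class's *Ibsp* UMIs in ApoE-/- and 1 held 35% in Trf2T188A/ApoE-/-. Without the highest cell of each library the levels were 0.846 and 8.27. The highest Trf2T188A/ApoE-/- cell also held 325 UMIs of *Chad* and 46 of *Col2a1*, both cartilage genes. Shares of cells with an *Ibsp* UMI were 19.5% and 18.1%, and after thinning 8.44% and 16.2%, so the deeper reading and the thinned one did not give the same order. *Spp1* was found in 76.7% and 89.5% of the cells.

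Among complement and acute-phase-like cells *Spp1* was at 21.9 and 43.5, a ratio of 1.98. *Ibsp* was at 0.0506 and 2.36, a ratio of 46.6 that fell to 8.43 when the highest cell of each library was left out. In Trf2T188A/ApoE-/-, 2 cells held 516 and 91 of the 611 *Ibsp* UMIs, the second with 454 UMIs of *Col2a1*, and the next cell held 1. The ApoE-/- class had 15 *Ibsp* UMIs, at most 2 in a cell. *Ibsp* thus passed detection only through the ApoE-/- library, where a larger share of cells held a UMI though the pooled level was lower. *Alpl* was at 0.33 and 0.12, a ratio of 0.362. These 3 of 7 members were past the fold, where 15.1% of 11629 genes were. *Mgp*, highest here, was at 468 and 406. Contractile-like cells differed little between the libraries, with 0 of the 6 members that passed detection past the fold and 1.64% of 10114 genes past it. In them *Spp1* was at 0.42 and 0.386, *Mgp* at 126 and 124, *Tnfrsf11b* at 0.299 and 0.273, *Enpp1* at 0.262 in both, *Alpl* at 0.0771 and 0.0703 and *Ibsp* at 0.0904 and 0.0651. In the unnamed cells *Tnfrsf11b* was at 0.872 and 1.6, a ratio of 1.83, and *Enpp1* at 0.284 and 0.431, a ratio of 1.52. These 2 of 7 members were past the fold, against 3.31% of 10498 genes, but the *Enpp1* ratio was 0.99 when cells were averaged. *Spp1* was at 5.21 and 6.78 there, a ratio of 1.3 that became 0.945 without the highest cell of each library, since 1 cell held 44.2% of the Trf2T188A/ApoE-/- UMIs.

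**Figure D3:**
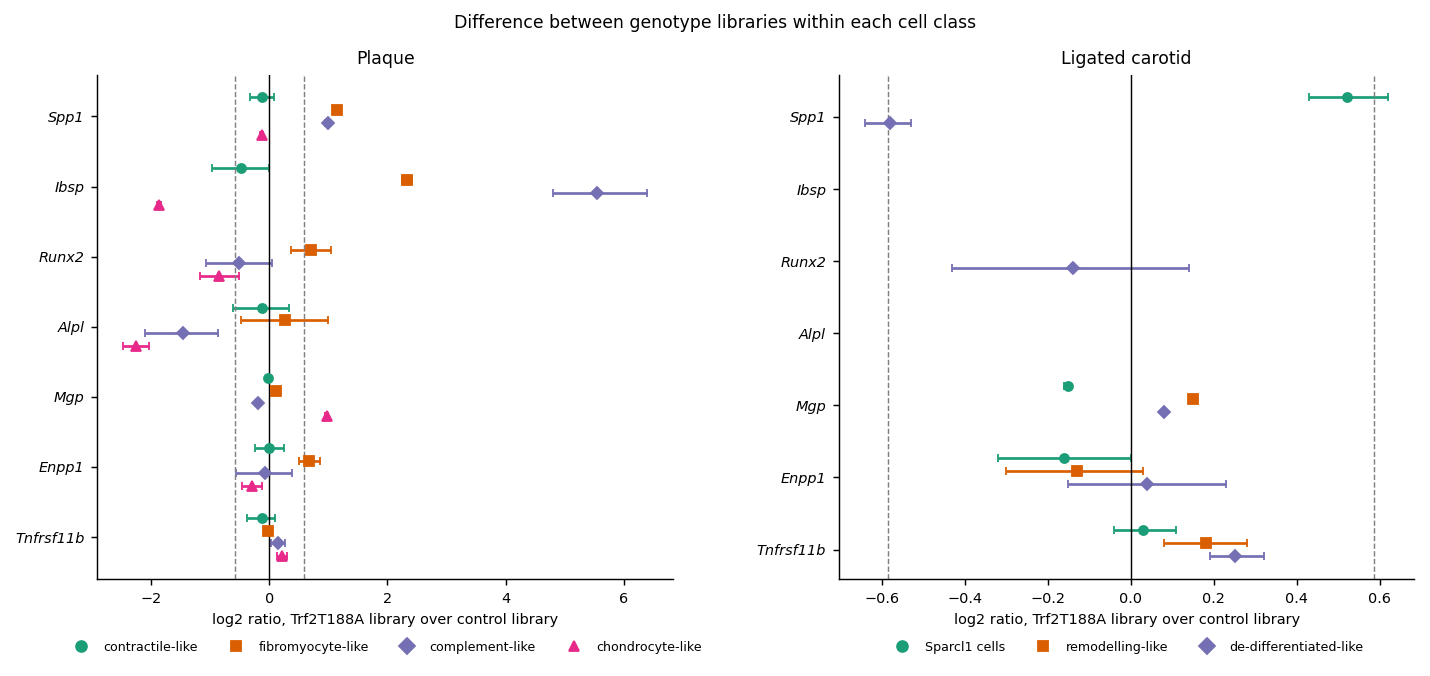
Log2 ratio of the Trf2T188A over the control library for each member that passed detection, by cell class of plaque (left) and ligated carotid artery (right), with exact 95% intervals for counting error and dashed lines at a fold of 1.5. *Ibsp* lay at -1.87 in chondrocyte-like and at 2.33 in fibromyocyte-like cells, and the members drawn for contractile-like cells and for ligation lay inside the lines.

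The other genes of the mineralisation pathways, 44 of 46 listed genes present under the listed symbols, were read in the same classes. In chondrocyte-like cells 32 of the 44 passed detection, of which 9 were lower and 3 higher in Trf2T188A/ApoE-/-, where 20.5% of all genes were past the fold, and the median log2 ratio was -0.16, beside -0.000454 over all genes tested. *Bmp6*, *Mepe*, *Bglap*, *Bglap2* and *Grem1* among the lower genes and *Sost* among the higher ones passed detection only in the library where they were higher, so the filter itself favoured these calls. *Col10a1*, the collagen of hypertrophic cartilage, was at 3.4 and 0.416 per 10000, a ratio of 0.122. Of the genes that handle phosphate, *Phex*, an endopeptidase of mineralising cells, was at 2.72 and 0.884 and *Smpd3*, a sphingomyelinase needed for bone mineralisation, at 1.27 and 0.346. *Mepe*, the gene between *Ibsp* and *Spp1*, had 88 and 5 UMIs, and the osteocalcin genes *Bglap* and *Bglap2* had 374 and 5 and 385 and 4. The osteocalcin genes are near-identical copies between which reads could be split, so their separate values are uncertain. The BMP ligand *Bmp6* (80 and 7 UMIs), the integrin *Itga9* (142 and 55) and the BMP antagonist *Grem1* (20 and 0, at least 4.55-fold lower with 3 counts per library as the floor) completed the lower genes. The higher genes were *Bmp2* (0.764 and 1.67 per 10000), *Nt5e*, which makes adenosine outside the cell (1.58 and 2.43), and the Wnt antagonist *Sost* (10 and 16 UMIs). *Sp7*, the osteoblast factor downstream of RUNX2, was at 0.272 and 0.232 and did not reach the fold. *Sparc*, osteonectin, was at 511 and 411 and likewise did not.

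**Figure D4:**
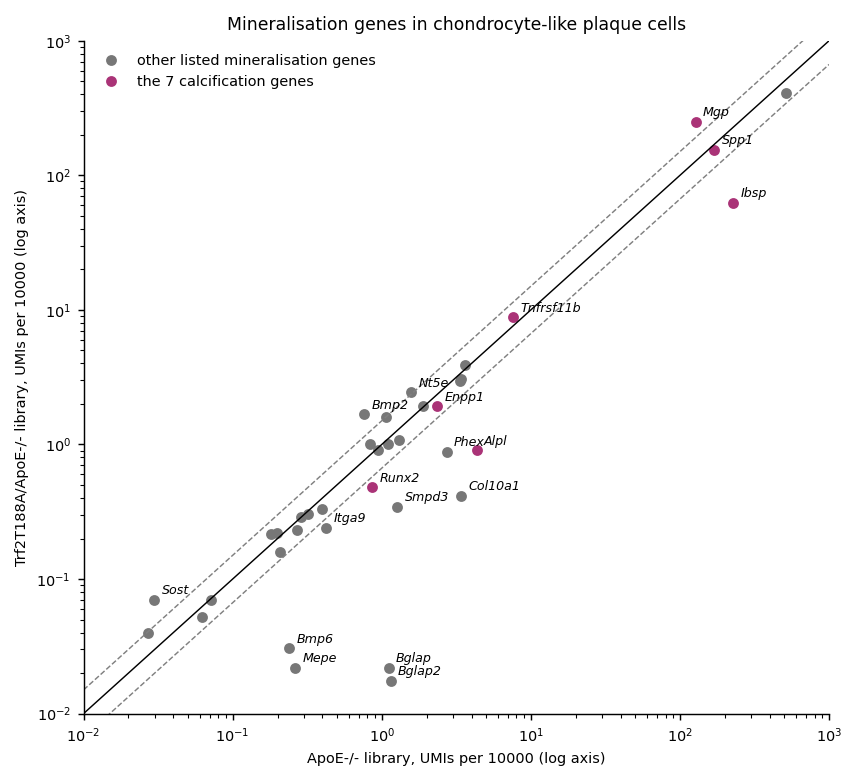
Pooled level of the mineralisation genes in chondrocyte-like cells of the Trf2T188A/ApoE-/- library (vertical) against the ApoE-/- library (horizontal), in UMIs per 10000 on log axes, with the 7 members in colour, equal levels on the solid line and a fold of 1.5 at the dashed lines. *Col10a1*, *Mepe*, *Bglap* and *Bglap2* lay below the lower line with *Ibsp*, *Alpl* and *Runx2*, and *Grem1*, at 0 in 1 library, is not drawn.

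In the other plaque classes fewer pathway genes were past the fold. In fibromyocyte-like cells, where 11.3% of all genes were past the fold, 27 passed, with *Nt5e* (0.217 and 0.815 per 10000) and *Phex* (0.0932 and 0.337) among those higher, and *Dlx5* (36 and 9 UMIs), *Itgb3* (0.426 and 0.25 per 10000) and *Smad6* (0.776 and 0.488) lower in Trf2T188A/ApoE-/-. Of the lower genes, *Dlx5* passed detection only through the ApoE-/- library, where it was higher. *Phex* was thus lower in the chondrocyte-like and higher in the fibromyocyte-like cells of the same library, as *Ibsp* was. In complement and acute-phase-like cells 25 passed and 2 were lower, *Bmp4* (62 and 32 UMIs) and *Ahsg*, which encodes fetuin-A (113 and 40 UMIs), a smaller share than the 15.1% of all genes. In contractile-like cells 0 of 22 were past the fold, and over all plaque cells 1 of 23, *Phex* (0.348 and 0.217).

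Relative to contractile-like cells, 28 of the 44 pathway genes passed in chondrocyte-like cells, of which 13 were higher and 10 lower in both libraries, against 14.6% and 30.4% of all genes. Several of the higher ones, *Sp7*, *Dlx5*, *Col10a1*, *Smpd3* and *Phex* among them, were detected in under 10% of contractile-like cells. They passed only through the class where they were higher, so the filter itself favoured these calls. *Sp7* had 91 and 53 UMIs in chondrocyte-like cells and 9 and 1 in contractile-like cells. The other higher ones included the osteogenic factor *Dlx5* (25-fold and 23.5-fold), *Col10a1* (400-fold and 29.1-fold), *Smpd3* (262-fold and 38-fold), *Phex* (40-fold and 10.8-fold) and the phosphate transporter *Slc20a1* (16-fold and 18.8-fold). Among the lower ones were the RANK receptor *Tnfrsf11a* (0.0974 and 0.105 of the contractile-like level), *Entpd1*, which hydrolyses extracellular ATP (0.0337 and 0.031), and *Sost* (0.0035 and 0.0067). *Tnfrsf11a*, and *Sost* in ApoE-/-, were detected in under 10% of chondrocyte-like cells and so passed only through contractile-like cells, where they were higher. In fibromyocyte-like cells 26 passed, with 10 higher and 6 lower, against 15.5% and 13.4% of all genes, among the higher *Bmp4* (8.33-fold and 9.51-fold) and the osteopontin receptor *Cd44* (10.6-fold and 8.65-fold). *Bmp4* was detected in under 10% of contractile-like cells and passed only through the class where it was higher. In complement and acute-phase-like cells 25 passed, with 7 higher and 7 lower, against 15.8% and 9.63% of all genes, the higher ones including *Ahsg* (126-fold, and at least 39.6-fold in Trf2T188A/ApoE-/- with 3 counts as the floor of the contractile-like cells) and *Gas6* (4.39-fold and 3.21-fold). *Ahsg* likewise passed only through the complement and acute-phase-like cells, where it was higher.

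After carotid ligation the inhibitors were detected widely, and *Ibsp* and *Alpl* hardly at all. The main classes (control and Trf2T188A) were remodelling-like cells (2057 and 1910, led by *Igfbp2*), cells led by *Sparcl1* (1595 and 2309), which served as the reference, and de-differentiated-like cells (1121 and 992, *Lum* and *Dcn*). The marker lists of the remodelling-like and de-differentiated-like classes came from the study's description of these same libraries. *Mgp* was at 746 and 788 per 10000 in de-differentiated-like cells, 384 and 345 in *Sparcl1* cells and 188 and 209 in remodelling-like cells. *Tnfrsf11b* was at 3.48 and 4.16, 1.47 and 1.5, and 0.712 and 0.805 in the same order. *Spp1* was at 6.47 and 4.31, 0.857 and 1.23, and 0.405 and 0.359. The same ranking of classes thus held for the inhibitors *Mgp* and *Tnfrsf11b* and for *Spp1* in both libraries. *Runx2* was at 0.184 and 0.167 in de-differentiated-like cells and at 0.0226 and 0.0139 in *Sparcl1* cells. *Enpp1* varied less, from 0.275 to 0.407 over these classes and libraries.

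Of the 4 members other than *Runx2* that passed detection, 3 were past the fold upward in de-differentiated-like over *Sparcl1* cells, *Spp1* (7.54-fold and 3.5-fold), *Mgp* (1.94-fold and 2.29-fold) and *Tnfrsf11b* (2.37-fold and 2.77-fold), and none was lower, against 5.96% of 7915 genes higher and 5.45% lower. *Runx2* (8.17-fold and 12-fold) was detected in 1.94% and 1.52% of *Sparcl1* cells and passed only through the class where it was higher. In remodelling-like cells 3 of the 4 that passed were lower, *Spp1* (0.472 and 0.291), *Mgp* (0.488 and 0.605) and *Tnfrsf11b* (0.485 and 0.535), and none was higher, against 3.45% lower and 2.44% higher. *Spp1* was detected in under 10% of remodelling-like cells and passed only through the *Sparcl1* cells, where it was higher. Endothelial-like cells (62 and 65) held 0 UMIs of *Ibsp* and *Alpl*. In macrophage-like cells (19 and 57) *Spp1* was at 1.66 and 1.04, below its level in de-differentiated-like cells. In the few interferon-responding-like cells (113 and 59) *Spp1* was at 0.178 and 2.78, from 20 UMIs in 10 cells and 217 in 18.

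**Figure D5:**
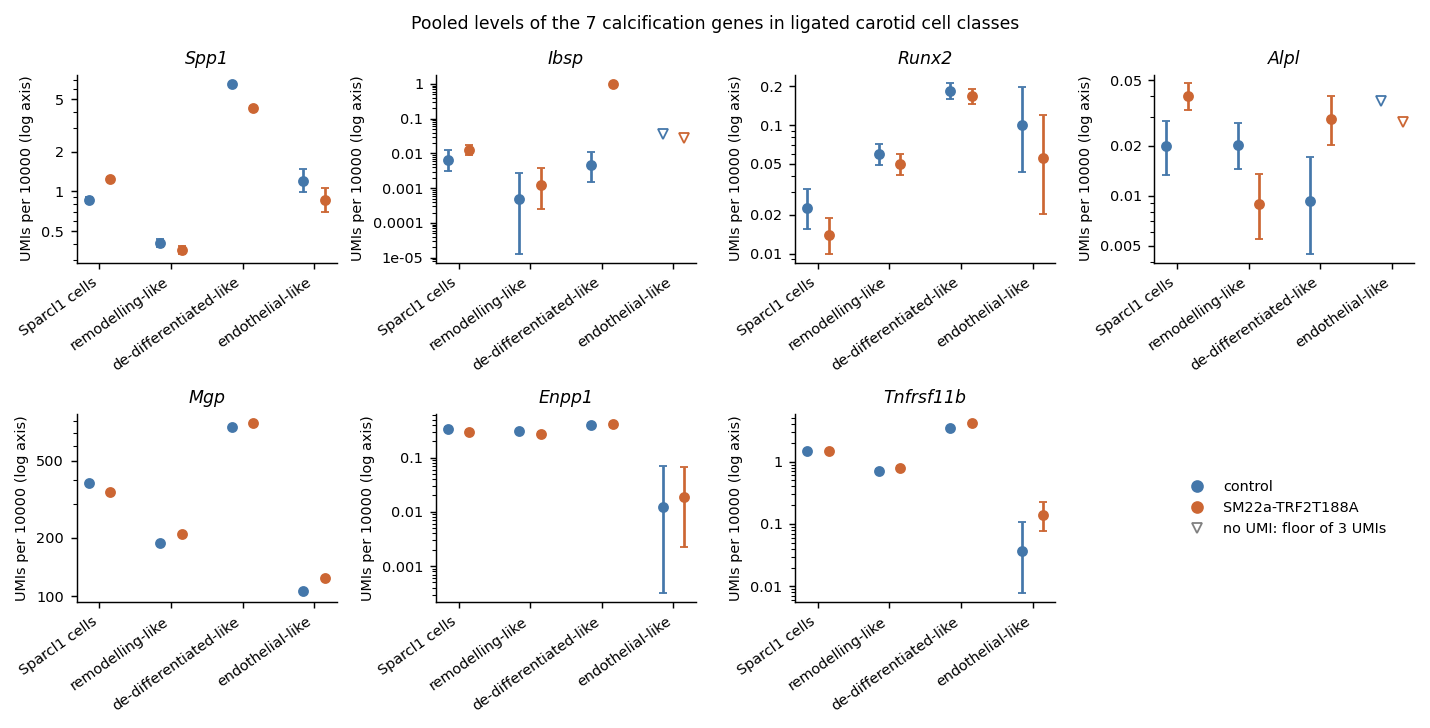
Level of each member (pooled UMIs per 10000 UMIs, log axis) in 4 classes of ligated carotid artery, 1 point per library with its exact 95% Poisson interval; open triangles mark the floor of 3 UMIs where a library held none. *Mgp*, *Tnfrsf11b*, *Runx2* and *Spp1* were highest in de-differentiated-like cells of both libraries, and the Trf2T188A value of *Ibsp* there came from 2 cells.

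Between the ligation genotypes no member was past the fold over all cells or in the main classes. Over all cells 4 members passed detection and 0 were called, against 1.15% of 8247 genes. The figures were 0 of 4 in *Sparcl1* cells (0.999% of genes), 0 of 3 in remodelling-like cells (2.25%) and 0 of 5 in de-differentiated-like cells (1.69%). *Spp1* in de-differentiated-like cells came closest, with a log2 ratio of -0.58. The small classes varied more over all genes. In interferon-responding-like cells 3 of 5 members were higher in Trf2T188A (*Spp1*, *Enpp1* with 33 and 35 UMIs and *Runx2* with 4 and 6), against 23% of 8814 genes. Of these, *Spp1* and *Runx2* were detected in under 10% of the control cells and passed only through the library where they were higher. In macrophage-like cells *Mgp* (12.4 and 59.8), *Tnfrsf11b* (0 and 41 UMIs) and *Runx2* (1 and 10 UMIs) were higher and *Spp1* (26 and 58 UMIs) lower, 4 of the 4 that passed, against 45.6% of 8561 genes. The *Spp1* ratio of 0.625 (0.387 to 1.035) became 0.955 without the highest cell of each library. There *Tnfrsf11b* and *Runx2* passed only through the Trf2T188A library, where they were higher. In endothelial-like cells 1 of 3 was lower, *Runx2* (8 and 6 UMIs), against 25.5% of 9478 genes. It passed only through the control library, where it was higher. Of the pathway genes, 0 of 23 were past the fold over all cells and 0 of 21 in de-differentiated-like cells, while *Smad6*, an inhibitor of BMP signalling, was higher in Trf2T188A *Sparcl1* cells (0.291 and 0.483) and *Phex* lower in Trf2T188A remodelling-like cells (0.328 and 0.185).

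*Ibsp* did not pass detection after ligation, and it was almost absent except from single cells. The control library held 5 *Ibsp* UMIs in de-differentiated-like cells and the Trf2T188A library 1248, all of them in 2 cells. One held 1183 *Ibsp* UMIs together with 1201 of *Col2a1* and 262 of *Chad*, and the other held 65 with 349 of *Spp1* and 149 of *Col2a1*. A cell with the cartilage genes and bone sialoprotein was thus seen in ligated artery at the level of single cells, in the Trf2T188A library. Osteocalcin reads were likewise in single de-differentiated-like cells, with 121 and 72 *Bglap* UMIs in 2 control cells, which held 472 and 57 UMIs of *Spp1*. In the Trf2T188A library 1 cell held 25, and the cells with 1183 and 65 *Ibsp* UMIs held 20 and 3.

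As a description over cells, which share a library and its depth, the rank correlations of the promoters within the chondrocyte-like class were positive. Spearman's rank correlation in ApoE-/- (81 cells) and Trf2T188A/ApoE-/- (61 cells) was 0.649 and 0.376 for *Ibsp* with *Alpl*, 0.611 and 0.342 for *Runx2* with *Alpl*, and 0.593 and 0.234 for *Ibsp* with *Runx2*. With cells thinned to 8000 UMIs (78 and 55 cells) the values were 0.595 and 0.454, 0.549 and 0.443, and 0.427 and 0.125, so the last pair was weak in Trf2T188A/ApoE-/-. For *Ibsp* with the inhibitor *Mgp* the coefficient was -0.191 and -0.04. Over all plaque cells 8 of the 21 pairs of members had a rank correlation of at least 0.2 in both libraries, the highest being *Spp1* with *Tnfrsf11b* (0.341 and 0.447). In the ligation libraries *Mgp* and *Tnfrsf11b* had a rank correlation of 0.428 and 0.445.

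The genes whose levels followed each member most closely were sought over 21 units of cluster and library in plaque, by Pearson's r of log2(pooled UMIs per 10000 + 0.1) among 13356 genes. For *Ibsp* they were *Col2a1* (0.977), the matrix protein gene *Chad* (0.973) and *Gm42793* (0.967), and for *Alpl* they were *Nsg2* (0.956), *Mcoln2* (0.94) and *AC103362.1* (0.939). *Runx2* was matched by its antisense partner *Runx2os1* (0.962), whose reads cannot be told apart from its own where strand was not used, *Snai1* (0.949) and *Gdf10* (0.93). *Spp1* was matched by the protease gene *Ctsk* (0.957), the lubricin gene *Prg4* (0.954) and *Fxyd5* (0.947). Of the inhibitors, *Enpp1* was matched by *Ankmy1* (0.935), *Itga10* (0.922) and the aggrecan gene *Acan* (0.922), *Tnfrsf11b* by the collagen genes *Col5a2* (0.97) and *Col8a1* (0.935) with *Eif1a* (0.941) between them, and *Mgp* by *Arhgdib* (0.923), *Plscr1* (0.896) and *Cdh11* (0.894). Over 11 units of the ligation libraries the closest genes were *Colec12* for *Mgp* (0.984), *Mrc2* for *Tnfrsf11b* (0.978), *Arsb* for *Spp1* (0.939), *Csnk1g3* for *Runx2* (0.942) and *Mef2c* for *Enpp1* (0.992).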

How the data were processed

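Chromium 10x Single Cell 3′ v3 libraries were prepared from plaques and ligated carotid arteries, 1 library per genotype in each experiment. The authors aligned reads to GRCm38 with Cell Ranger (7.0.0 for plaque, 6.1.2 for ligation), filtered cells with different limits on detected genes for the 2 plaque libraries, kept plaque clusters that expressed Confetti, and normalised in Seurat (4.3.0 and 3.2.1, with R 4.2.2 and 3.6.2, per the submitters' processing notes). Whether counting used strand is not given in the sources used here. The deposited values are a signal, each gene's UMIs scaled linearly so that every cell sums to 10000. Whole UMIs were recovered from the steps of these values, 100% being within 0.01 of whole multiples, with totals of 37869934 and 24064570 UMIs in plaque (ApoE-/- and Trf2T188A/ApoE-/-) and 47713453 and 67426588 after ligation (control and Trf2T188A). With 1 library per group a count test has no residual degrees of freedom and none was run, so it calls no genes.

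Each experiment was clustered in Seurat 5.3.0 (R 4.3.3) on 2000 variable genes, without integration, with 18 and 17 principal components at resolutions of 0.9 and 0.2. The 51 listed genes were left out of the variable genes, and 27 and 25 of them would otherwise have been variable. A cluster was named when its markers' mean log2 difference was at least 0.5 with at least 3 markers higher. Doublets were scored with Scrublet in scanpy 1.11.5, which put 3 and 3 plaque cells and 58 and 91 ligation cells above 0.25, and were left in. UMIs were summed by class and library with pandas 2.3.3, numpy 2.4.6 and scipy 1.17.1 (Python 3.11.15), with exact Poisson, Clopper-Pearson and conditional binomial 95% intervals, and a floor of 3 counts for a gene at 0. Plots were drawn with matplotlib 3.10.9. The scripts were tested on simulated data.

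The members and lists were chosen with earlier results of these data known. Genes named were the 7 members, the pathway genes past the fold in the class described (1 of them is not reported here) or given as values inside it (*Sp7* and *Sparc*, chosen after their values were seen), and the 3 genes most alike each member (the closest 1 after ligation). Alternatives were averaging over cells, other resolutions, listed genes kept variable, reciprocal PCA integration, leaving out cells with high doublet scores or under 2000 genes, thinning to 8000 (plaque) or 5000 (ligation) UMIs, a pseudocount of 1, a fold of 2 and testing every gene. Leaving out the highest cell and keeping only Confetti cells were added after seeing the data.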

Additional observations from a re-analysis of the deposited data

Results flagged for a closer look

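*Ibsp* and *Runx2* stood on opposite sides of no difference in 2 plaque cell classes under the same genotype contrast, with 1 library per genotype, and the differences between classes were not tested. The log2 ratio of Trf2T188A/ApoE-/- over ApoE-/- for *Ibsp* was 2.33 in fibromyocyte-like cells and -1.87 in chondrocyte-like cells. In complement and acute-phase-like cells it was 5.54, from 15 and 611 UMIs, against the same -1.87. Of those 611 UMIs, 516 and 91 were in 2 cells, the second of which also held 454 UMIs of *Col2a1*. For *Runx2* the log2 ratio was 0.70 in fibromyocyte-like and -0.85 in chondrocyte-like cells. The fibromyocyte-like value came from 150 and 155 UMIs, and its ratio was 1.34, inside the fold, without the highest cell of each library. With only Confetti cells kept, the chondrocyte-like log2 ratio was -0.35, also inside the fold.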

How the results depend on the processing

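The 14 log2 ratios between plaque genotypes that were past the fold over all cells or in named classes kept their sign under every alternative run (10 or 11 each). Of these, 8 also stayed past the fold, while *Spp1* over all cells did so in 10 of 11 alternatives, *Alpl* over all cells and *Runx2* in chondrocyte-like cells in 9 of 11, *Runx2* and *Enpp1* in fibromyocyte-like cells in 8 and 7 of 11, and *Alpl* in complement and acute-phase-like cells in 8 of 10. The unnamed cells were not followed through the other clusterings, and there the ratio of *Enpp1* went from 1.52 to 0.99 on averaging over cells. *Ibsp* in chondrocyte-like cells ranged from -2.01 to -1.64. With a pseudocount of 1, *Alpl* over all cells came to -0.11. Counts of members past the fold between genotypes moved as follows. In contractile-like cells it was 1 in place of 0 on averaging over cells, at 1.5 times the resolution and with every gene tested. In fibromyocyte-like cells it was 2 in place of 4 at the lower resolution, with a pseudocount of 1 and at a fold of 2, and in chondrocyte-like cells 2 in place of 4 at a fold of 2. After ligation, where it was 0, it became 1 in *Sparcl1* cells with listed genes kept variable or with integration and 3 with every gene tested, 1 in de-differentiated-like cells with listed genes kept variable, at 1.5 times the resolution, with integration, without high doublet scores, without cells under 2000 genes and after thinning, and 2 with every gene tested. It was 1 over all cells without high doublet scores and 2 with every gene tested, and 1 in remodelling-like cells with every gene tested. Between classes, with *Runx2* counted, it was 3 in place of 5 for complement and acute-phase-like cells with a pseudocount of 1, and for remodelling-like cells 1 in place of 3 with a pseudocount of 1 or a fold of 2 and 5 with every gene tested. Pairs with a rank correlation of at least 0.2 numbered 5 in place of 8 in plaque after thinning or within chondrocyte-like cells, and 1 in place of 3 within de-differentiated-like cells. At the lower resolution (0.45 in plaque and 0.1 after ligation) the complement and acute-phase-like and de-differentiated-like classes could not be separated and gave no value. The 1 library per genotype, the few chondrocyte-like cells and the *Ibsp* UMIs held by single cells limit these values. No paired analysis was possible because each group held 1 library, numbered 1, so that the groups compared shared fewer than 2 replicate numbers.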
